A study of Homo sapiens with 38 samples.

Results

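The HOX genes are 39 protein-coding genes that lie in 4 clusters, HOXA on chromosome 7, HOXB on chromosome 17, HOXC on chromosome 12 and HOXD on chromosome 2. They were taken as every protein-coding RefSeq gene record whose symbol is HOXA, HOXB, HOXC or HOXD followed by a number, which gave 39 of the 20037 protein-coding records on chromosomes 1 to 22, X and Y. HOXA holds 11 of them, HOXB 10, HOXC 9 and HOXD 9. For each gene, and for each cluster from its first to its last HOX record, all peaks that overlapped the record or the 5 kb on each side by at least 1 bp were collected.

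HOX genes encode homeodomain transcription factors that give cells their position along the body axis, and their order in a cluster follows the order in which they are used from head to tail. In blood cells some of them, above all HOXA9 and HOXA10, are active in stem and progenitor cells and are silenced as cells mature. The clusters are classic targets of Polycomb repression and of activation by the MLL and menin proteins. In T-cell acute lymphoblastic leukaemia, high HOXA expression marks certain genetic subtypes that are distinct from the TAL1 subtype.

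The data are chromatin immunoprecipitation and sequencing (ChIP-seq) of Jurkat, a line of human leukaemic T cells kept in culture, which expresses TAL1. ChIP-seq lists as peaks the places where DNA is pulled down with an antibody against a protein or a histone mark. The series labels 38 samples in 19 groups of 2, and 3 of these groups were used here: GATA3, BHLHE40 and H3K27ac, each in wild-type Jurkat cells carrying the control lentivirus Ctrl_LV. GATA3 is a zinc-finger factor of the T-cell lineage that binds the letters GATA, BHLHE40 is a basic helix-loop-helix factor induced by activation that binds E-boxes, and H3K27ac is acetylation of histone H3 found at active promoters and enhancers. The cells of all 3 groups had been stimulated with ionomycin (500 ng/ml) and the phorbol ester PMA (50 ng/ml), for 5 hours by the sample labels and for 2 hours by the treatment protocol. The 3 groups share vector and stimulation, so the values describe 1 state. The other 16 groups, with H3K27me3, the Polycomb mark, among them, were not analysed here.

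Each group is 1 list of peaks made from its 2 samples, with no value per sample, so no spread between replicates and no test can be given and the read depth is unknown. The signal value of a peak is the authors' enrichment measure and was used only within its own list. The GATA3 list held 29009 peaks (median signal value 11.2), the BHLHE40 list 26205 (median 9.35) and the H3K27ac list 113570 (median 3.31). As a check of the label, 10 of 10 T-cell and Jurkat marker genes had an H3K27ac peak within 5 kb, against 1 of 6 marker genes of other cell types (CD14, with a signal value of 2.57). For GATA3 these counts were 8 of 10 and 2 of 6, and for BHLHE40 10 of 10 and 1 of 6. Over all protein-coding records the shares were 78.4% for H3K27ac, 48.0% for GATA3 and 61.6% for BHLHE40. The T-cell set also holds longer records, up to 118764 bp (PTPRC), against at most 17196 bp (ALB) in the other set. The check is therefore limited.

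The sequences below show the promoters of the members with a factor peak directly over a RefSeq gene start. RefSeq promoter windows (GRCh38.p14, 250 bases before to 50 bases after the start) were given for 20 of the 39 genes, in 27 windows. No window overlapped a GATA3 peak, against 18.1% of 22199 protein-coding windows. BHLHE40 peaks overlapped 2, at HOXD8 and at 1 of the 7 starts of HOXA3, against 42.6% of all windows, and H3K27ac overlapped 1, the same HOXA3 start, against 46.1%. The windows are written from 5′ to 3′ on the strand of the gene, with the general E-box letters CANNTG and the letters GATA on either strand (GATA or TATC) in capitals.
HOXD8 promoter, chr2:176129455-176129754, plus strand: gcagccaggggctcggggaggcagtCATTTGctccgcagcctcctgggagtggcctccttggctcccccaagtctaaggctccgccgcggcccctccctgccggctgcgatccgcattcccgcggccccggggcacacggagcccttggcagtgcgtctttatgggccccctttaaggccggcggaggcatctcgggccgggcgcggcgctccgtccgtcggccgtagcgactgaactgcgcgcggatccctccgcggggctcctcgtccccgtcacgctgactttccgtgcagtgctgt
HOXA3 promoter, chr7:27150901-27151200, minus strand: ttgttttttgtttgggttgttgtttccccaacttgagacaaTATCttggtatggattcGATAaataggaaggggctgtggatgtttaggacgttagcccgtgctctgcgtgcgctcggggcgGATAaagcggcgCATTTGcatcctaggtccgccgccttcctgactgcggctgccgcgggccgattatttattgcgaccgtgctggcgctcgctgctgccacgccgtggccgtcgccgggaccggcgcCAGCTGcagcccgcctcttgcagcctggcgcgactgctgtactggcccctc

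In the HOXD8 window the BHLHE40 summit lay at base 173, which is 78 bp before the gene start. The window held 1 E-box, CATTTG at base 26, and no GATA letters. In the HOXA3 window the summit lay at base 190, 61 bp before the start, between CATTTG at base 135 and CAGCTG at base 250. Neither window held CACGTG, the palindromic E-box that BHLHE40 and its relatives prefer in vitro.

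CACGTG was nevertheless common in the HOX promoter windows given, which were nearly all from HOXA and HOXD. HOXB was represented only by HOXB1, and HOXC only by the start shared by HOXC4 and HOXC5. Neither of those windows held CACGTG. Of the 26 distinct HOX windows (HOXC4 and HOXC5 share 1), 9 held it (34.6%), against 8.34% of all 22199 windows. The general form CANNTG, which includes CACGTG, was in 73.1% of HOX windows and 65.1% of all windows, and GATA on either strand in 46.2% and 43.6%. None of the 9 HOX windows with CACGTG overlapped a BHLHE40 peak, whereas 1078 of all 1851 windows with CACGTG did (58.2%). Of the 17 HOX windows without CACGTG, 2 overlapped one (11.8%), so such peaks were rare in HOX windows with or without these letters. The 9 sites are shown with 10 bases on each side and CACGTG in capitals, since they are the HOX sites with these letters and without a peak. They were chosen after their values were seen.
HOXA3 site, chr7:27118393-27118418, minus strand: gacgtatgacCACGTGagcacataat
HOXA4 site, chr7:27130942-27130967, minus strand: gggggcgctgCACGTGgggcacgggg
HOXA7 site, chr7:27156665-27156690, minus strand: tgtgggcggtCACGTGctgcggcgag
HOXA9 site, chr7:27165593-27165618, minus strand: gctggacgggCACGTGacgcgcacgg
HOXD1 site, chr2:176188605-176188630, plus strand: cggccagcgcCACGTGgccgcccccg
HOXD3 site, chr2:176157250-176157275, plus strand: aagtcccgacCACGTGattggcgaaa
HOXD10 site, chr2:176116662-176116687, plus strand: ggctctggagCACGTGacccgagagg
HOXD11 site, chr2:176107180-176107205, plus strand: ttcatggcgtCACGTGacataattac
HOXD13 site, chr2:176092580-176092605, plus strand: ttcctaccccCACGTGgccgcgcgca

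From these sites the nearest BHLHE40 peak was 3893 bp away at HOXA7, 4193 bp at HOXA9 and between 11725 and 47313 bp at the other 7. The HOXA7 site lay 60 bp from an H3K27ac peak and the HOXD1 site 875 bp from one. At the other 7 sites the nearest H3K27ac peak was between 4156 and 17133 bp away. A match of letters is a description and not a binding site.

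Across the 39 genes, H3K27ac was the most widely listed and GATA3 the least. GATA3 peaks lay within 5 kb of 3 genes (7.69%), against 48.0% of all protein-coding records. BHLHE40 peaks lay within 5 kb of 15 (38.5%), against 61.6%, and H3K27ac peaks within 5 kb of 25 (64.1%), against 78.4%. The 3 genes with GATA3 were HOXA3, HOXA7 and HOXC13. HOX records are short, from 1677 to 45574 bp, so the same shares were taken over the 13294 protein-coding records no longer than the longest HOX record, HOXA3. These were 36.8% for GATA3, 56.2% for BHLHE40 and 71.6% for H3K27ac, and the HOX shares lay below each of them as well. This limit caps the length but does not match it, since most HOX records are far shorter than HOXA3. Length is therefore not accounted for. Without the 5 kb flanks 2 HOX genes had GATA3, 7 BHLHE40 and 13 H3K27ac, against 40.8%, 56.0% and 70.9% of all records. At stricter thresholds (for H3K27ac 5 on the −log10 q scale, for the factors a score of 830) they were 3, 8 and 17, against 40.3%, 56.1% and 61.9%. HOXA3 and HOXA7 had peaks of all 3 lists (5.13%, against 41.6% of all records and 32.1% of the shorter ones), and 12 genes had none (30.8%, against 19.1%, and against 25.8% of the shorter records). The HOX counts rest on shared peaks: 15 of 28 H3K27ac peaks, 7 of 11 BHLHE40 peaks and 1 of 3 GATA3 peaks lay in the windows of more than 1 gene.

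**Figure D1:**
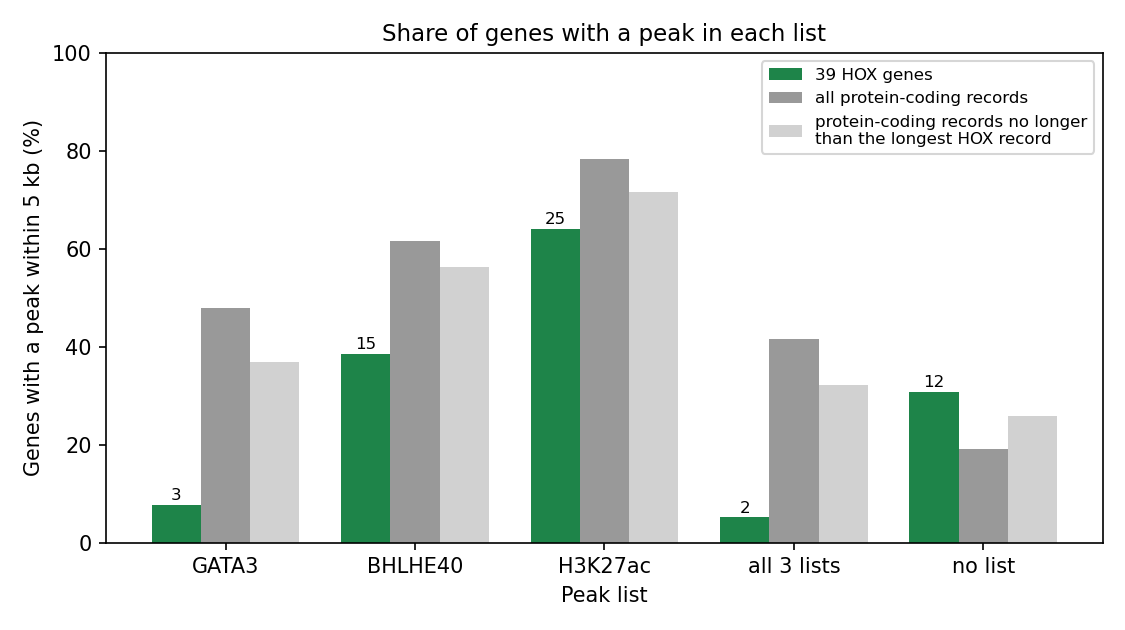
Percent of genes with a peak within the gene record plus 5 kb, for the 39 HOX genes, for all protein-coding records and for those no longer than the longest HOX record. Numbers above the HOX bars are gene counts: 3 genes for GATA3, 15 for BHLHE40, 25 for H3K27ac, 2 with all 3 lists and 12 with none.

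The genes without any peak were HOXA5, HOXA10, HOXA11, HOXA13, HOXB1, HOXB2, HOXC9, HOXC11, HOXC12, HOXD4, HOXD10 and HOXD11. Of the posterior genes (numbers 9 to 13, used toward the tail end and in limbs and the urogenital tract) 8 of 16 had none. Of the central genes (4 to 8) 2 of 15 had none, and of the anterior genes (1 to 3, used in the hindbrain and neck) 2 of 8. Of all protein-coding records 19.1% had none, and of the shorter ones 25.8%. H3K27ac peaks lay near 13 of 15 central genes (86.7%), 6 of 8 anterior genes (75.0%) and 6 of 16 posterior genes (37.5%), against 78.4% of all records. The same H3K27ac peak was counted for the central genes HOXC4, HOXC5, HOXC6 and HOXC8. Inside the records the H3K27ac counts were 7 central, 3 anterior and 3 posterior genes, against 70.9% of all records. BHLHE40 peaks lay near 8 central (53.3%), 3 anterior (37.5%) and 4 posterior genes (25.0%), against 61.6% of all records. None of the 3 genes of paralogue group 11 had a peak, while all 3 genes of group 8, HOXB8, HOXC8 and HOXD8, had both BHLHE40 and H3K27ac within 5 kb. Of these only HOXD8 had them inside its record. HOXB8 and HOXC8 were counted through their flanks alone, HOXC8 by peaks in the shared first part of HOXC4, HOXC5 and HOXC6. The plot of peaks per gene shows these columns side by side.

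**Figure D2:**
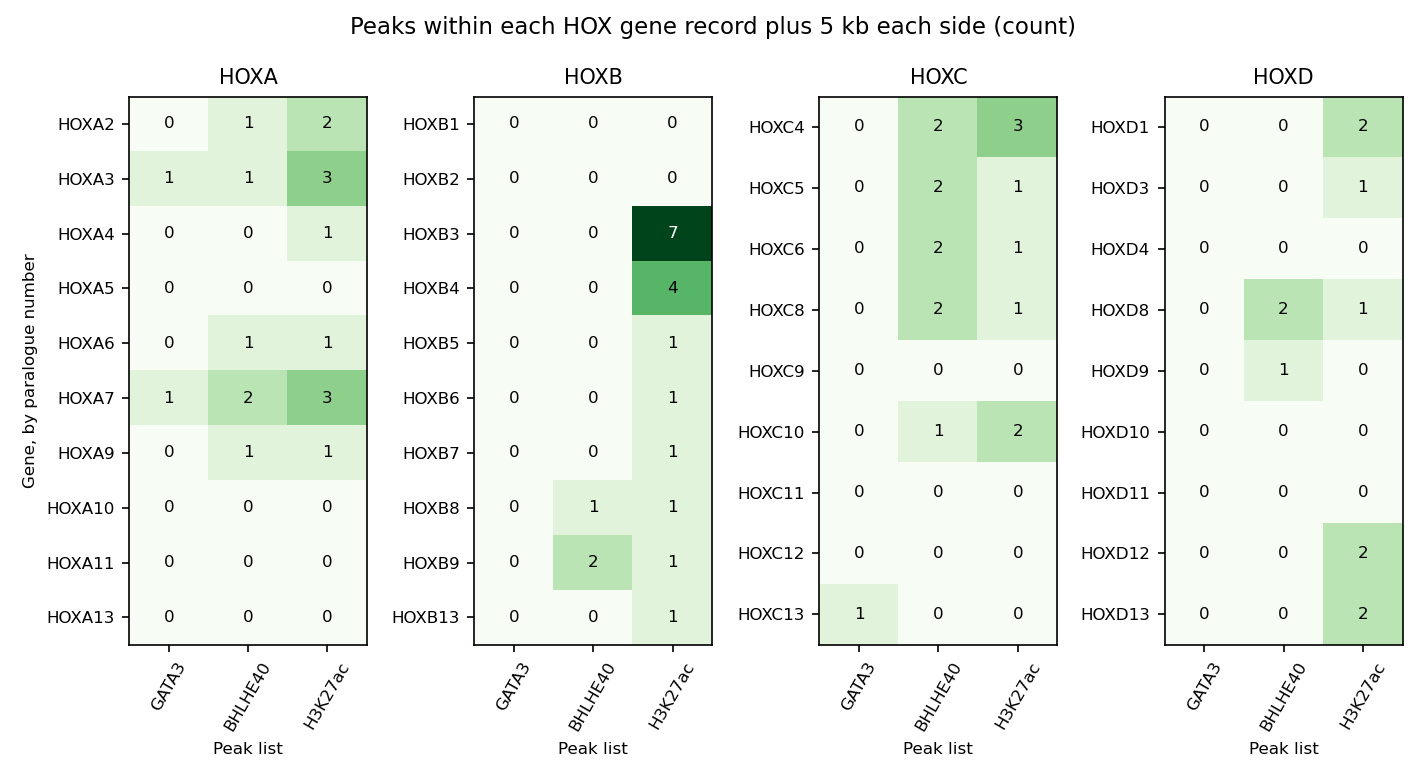
Number of peaks within each HOX gene record plus 5 kb (cell value and shade) by peak list, with genes ordered by paralogue number in each cluster and 1 HOXA gene not drawn. HOXB3 has the highest count, 7 H3K27ac peaks, and 12 genes have 0 in all 3 lists.

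The HOXA window (chromosome 7, 27087993 to 27205091) held 1 GATA3, 3 BHLHE40 and 6 H3K27ac peaks. None lay beyond the gap between HOXA7 and HOXA9. The 43.7 kb from 27161413 to the end of the window, which hold HOXA9, HOXA10, HOXA11, HOXA13 and the microRNA gene MIR196B, had no peak of any list. HOXA9 and HOXA10 are the HOX genes best known from leukaemia. HOXA9 was counted with BHLHE40 and H3K27ac only through peaks in its flank, at 27160570 to 27161412 and 27160774 to 27161161.

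At the HOXA3 start shown above, the BHLHE40 peak (27150352 to 27151478) had a signal value of 7.73 and overlapped an H3K27ac peak of 5.88 (27150315 to 27150954), with the summits 422 bp apart. HOXA3 acts in the formation of the thymus and parathyroid. Another BHLHE40 peak, between HOXA7 and HOXA9, was the strongest of the cluster at 9.22 and overlapped H3K27ac at 5.38. All 3 BHLHE40 peaks of HOXA thus coincided with H3K27ac, and all 3 had scores from 556 to 804. The score of the factor lists runs from 540 to 1000 and measures how well the peak repeats between the samples, and none of the 3 reached the stricter 830.

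The GATA3 peak of HOXA lay inside HOXA7 at 27154888 to 27155228, with a signal value of 8.83 (rank 19576 of 29009), in the weaker part of its list. It overlapped neither BHLHE40 nor H3K27ac. An H3K27ac peak of 6.48 (27155877 to 27156617) lay in HOXA7 close to the start of this minus-strand gene, whose record ends at 27156675. So the 3 lists met in the windows of HOXA3 and HOXA7 but not at 1 place.

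**Figure D3:**
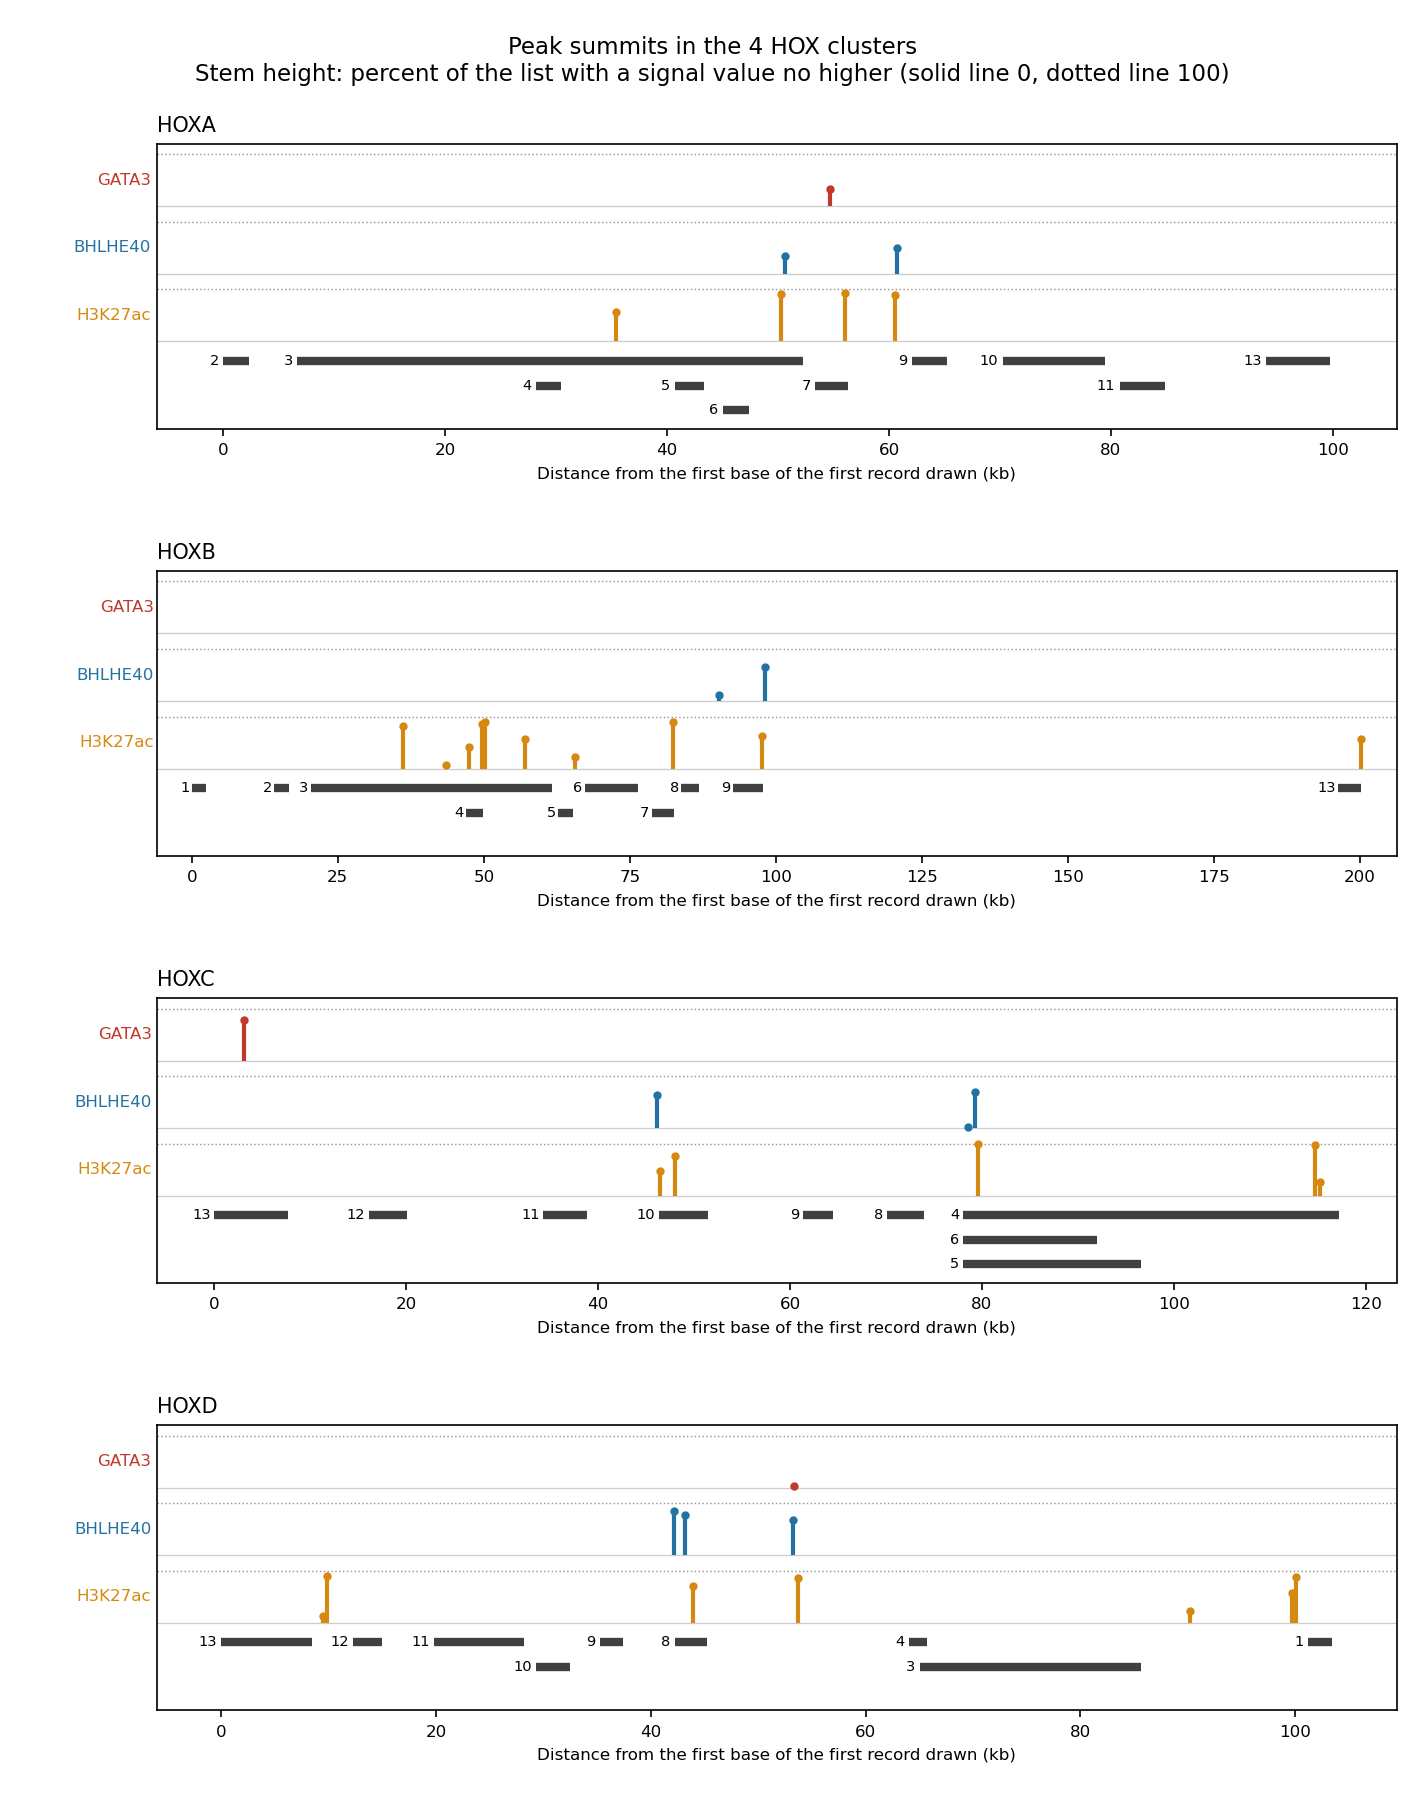
Peak summits in the 4 HOX clusters, against the distance in kb from the first record drawn, without 1 HOXA gene and the 3 peaks nearest to it. Dark bars are the gene records with their paralogue numbers, and each stem with a dot is 1 peak whose height is the percent of its list with a signal value no higher. GATA3 has 3 stems in all, none in HOXB, and no stem stands over HOXA9 to HOXA13 or in the long stretch between HOXB9 and HOXB13.

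The HOXB window (chromosome 17, 48523526 to 48733750) was the longest at 210 kb and held 10 H3K27ac peaks, 2 BHLHE40 peaks and no GATA3 peak. H3K27ac centred on HOXB3 and HOXB4: 6 peaks overlapped the HOXB3 record, 2 of them also HOXB4, which lies inside it. HOXB4 is known for expanding blood stem cells when over-expressed. The strongest, at 48578603 to 48578908 (signal value 5.56, rank 10813), lay inside HOXB3 just beyond the higher-coordinate end of HOXB4. The next in strength was at HOXB7, 48610377 to 48611285, at 5.39, and the third, of 4.57, was at the end of HOXB4 itself (48578150 to 48578415). No H3K27ac peak of HOXB reached the signal value of the H3K27ac peak inside HOXA7.

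The BHLHE40 peaks of HOXB lay elsewhere than the acetylation. They flanked HOXB9, at 48626445 to 48627183 (signal value 11.9, rank 8974) with the summit 289 bp outside the record, and at 48618536 to 48618997 (5.54, rank 23064) with the summit 2434 bp outside it. Neither overlapped an H3K27ac peak. An H3K27ac peak of 3.56 (rank 41757 of 113570) lay in HOXB9 beside the stronger of them and ended at 48626284. Between 48627184 and 48728490 lay 101 kb without a peak, up to an H3K27ac peak of 3.31, the median of its list, at HOXB13, a gene best known from the prostate.

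The HOXC window (chromosome 12, 53933831 to 54061030) held the strongest H3K27ac and GATA3 peaks of the 4 clusters. The H3K27ac peak at 54017636 to 54018756 had a signal value of 13.5 and ranked 820 of 113570, within the first 0.722% of the list. It lay in the shared first part of HOXC4, HOXC5 and HOXC6, whose records all begin at 54016888, so these genes cannot be told apart by it. HOXC4 is a HOX gene known to be active in lymphoid cells. A BHLHE40 peak (54017606 to 54018514, signal value 12.8, rank 7852) overlapped it, with the summits 310 bp apart. A second, narrow BHLHE40 peak of 205 bp lay beside it at 54017317 to 54017521 with a signal value of 3.16, among the weakest of its list at rank 25876 of 26205.

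A further strong H3K27ac peak, 10.0 at 54052666 to 54053738 (rank 2460), lay in the HOXC4 record and overlapped no factor peak. At HOXC10 a BHLHE40 peak (53984877 to 53985200, signal value 11.4) overlapped the lower-coordinate end of the record and an H3K27ac peak of 3.25. The GATA3 peak lay alone inside HOXC13, a gene needed for hair and nails, at 53941708 to 53942229 with a signal value of 19.9 (rank 6625 of 29009). No other list had a peak within 5 kb of HOXC13. The stretches around HOXC11 and HOXC12 (42.6 kb, with HOTAIR, a long non-coding RNA studied for its links to Polycomb) and around HOXC8 and HOXC9 (30.4 kb) held no peak.

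The HOXD window (chromosome 2, 176082487 to 176195907) held the strongest BHLHE40 peak of the clusters. It is the one over the HOXD8 start shown above (176129294 to 176130085), with a signal value of 18.4 and rank 3854 of 26205. A second peak of 14.6 (176130247 to 176131065) lay inside HOXD8. Neither overlapped H3K27ac, and the 1 H3K27ac peak within 5 kb of HOXD8 had a signal value of 3.66, from 176131372 to 176131573.

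The third BHLHE40 peak of HOXD marked the only place in the 4 clusters where all 3 lists met. There a BHLHE40 peak (176140386 to 176141304, signal value 12.2), a GATA3 peak (176140453 to 176140981, signal value 5.33, rank 27941 of 29009) and an H3K27ac peak (176140972 to 176141343, signal value 4.64) overlapped. The factor summits were 61 bp apart. The GATA3 and H3K27ac peaks overlapped only by a few bases at their edges, with summits 352 bp apart. The place lies between HOXD8 and HOXD4, 8103 bp from the nearest HOX record at the GATA3 summit, and so is counted for no gene. The GATA3 peak is among the weakest of its list, and its score of 576 is below 830.

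Of the other 6 H3K27ac peaks of HOXD, the strongest lay between HOXD13 and HOXD12 (176097194 to 176097780, rank 12292 of 113570). HOXD13 and HOXD12 act in limb patterning. A pair of 3.31 and 4.84 lay 1459 and 1091 bp from HOXD1 at their summits, in the record of HAGLR, a long non-coding RNA. The 36.3 kb with HOXD3 and HOXD4 and the 31.5 kb with HOXD9 to HOXD12 held no peak.

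Most overlaps between lists in the clusters were of BHLHE40 with H3K27ac. Of the 11 BHLHE40 peaks in the clusters, 6 overlapped H3K27ac, against 76.4% of the whole BHLHE40 list, and 1 overlapped GATA3, against 53.0%. In the other direction, 7 of 28 H3K27ac peaks overlapped BHLHE40 (25.0%), against 22.9% of the whole H3K27ac list, and 1 overlapped GATA3 (3.57%), against 15.3%. Of the 3 GATA3 peaks, 1 overlapped BHLHE40 (48.7% of the whole list) and 1 H3K27ac (49.1%). The overlap of GATA3 with H3K27ac is the one at the peak edges in HOXD. By signal value, 21 of 28 H3K27ac peaks, 6 of 11 BHLHE40 peaks and 1 of 3 GATA3 peaks were in the upper 50% of their lists, and 6, 0 and 0 in the upper 10%. Peaks tied at the median of the H3K27ac list were counted in its upper 50%. Ranked by −log10 p, 64.3% of the H3K27ac peaks were in the upper 50%, against 75.0% by signal value, and the factor shares were unchanged.

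Measured per length, the clusters held 0.528 GATA3 peaks per 100 kb, against 1.37 over all protein-coding records with their 5 kb flanks. BHLHE40 peaks numbered 1.94 per 100 kb, against 1.43, and H3K27ac peaks 4.93, against 5.39. For BHLHE40 the share of HOX genes was thus below that of all coding records while the density was above it. The densities compare unlike regions, so no excess is read from them. HOX genes lie close together, 39 in 568 kb, and the density over all records includes records longer than any HOX record. The 200 kb on each side of the clusters, a comparison added after the data were seen, held 24 GATA3, 28 BHLHE40 and 74 H3K27ac peaks in 1600 kb, very unevenly. Beside HOXA there were 0 GATA3, 0 BHLHE40 and 7 H3K27ac peaks, so the cluster was denser than its surroundings in all 3 lists. Beside HOXB, which borders the T-cell adaptor gene SKAP1, there were 15, 19 and 37, and the cluster was sparser in all 3. HOXC had 5, 5 and 14 such peaks and HOXD 4, 4 and 16.

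**Figure D4:**
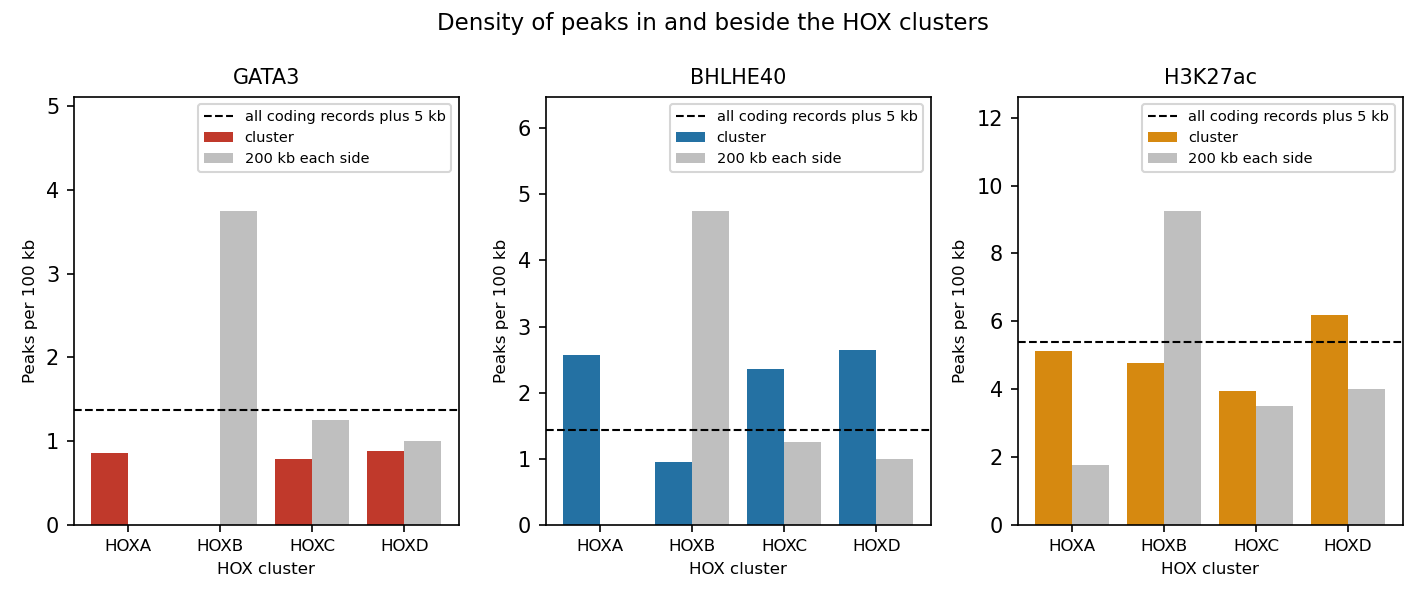
Peaks per 100 kb in each HOX cluster window (coloured bars), in the 200 kb on each side of it (grey bars) and over all protein-coding records plus 5 kb (dashed line), for the 3 lists. HOXB is the cluster with 0 GATA3 peaks inside and 15 in its surroundings, and HOXA the reverse, with 1 inside and 0 outside.

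The clusters also carry microRNA genes, of which MIR10A, MIR10B, MIR196A1, MIR196A2, MIR196B and MIR615 were examined. No hairpin overlapped a peak of any list. Hairpins are short, and the peaks of a list covered at most 2.76% of a cluster window (BHLHE40 in HOXA). The share over all microRNA hairpins was not computed, so nothing particular to these genes is read from this. MIR10A came closest, 930 bp from the H3K27ac peak of signal value 5.56 beside HOXB4. MIR196A2 lay 4807 bp from H3K27ac, and the other 4 lay between 6206 and 15194 bp from it. The nearest BHLHE40 peak was 5307 bp from MIR196A1 and farther from the others, and GATA3 peaks were at least 9322 bp away. Distance from peaks was not particular to the MIR196 genes: MIR10B (8960 bp) and MIR615 (15194 bp) lay farther from H3K27ac than MIR196A2. The 5p mature forms of the MIR196 genes from 3 clusters share 1 seed (bases 2 to 8, in capitals), which differs from that of miR-10a-5p. They are shown as paralogous products.
hsa-miR-196a-5p (MIR196A1 in HOXB, MIR196A2 in HOXC): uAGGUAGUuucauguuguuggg
hsa-miR-196b-5p (MIR196B in HOXA): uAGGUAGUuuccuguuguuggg
hsa-miR-10a-5p (MIR10A in HOXB): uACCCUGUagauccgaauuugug

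The genes for proteins that work with HOX factors, or that switch the clusters, were counted in the same way. Some are far longer than any HOX record, such as PBX3 with 220005 bp. Their counts stand beside the shares over all protein-coding records, which were 48.0% for GATA3, 61.6% for BHLHE40, 78.4% for H3K27ac and 41.6% for all 3 lists. Of 9 genes for TALE cofactors, which bind DNA together with HOX proteins, 5 had GATA3, 6 BHLHE40, 8 H3K27ac and 4 all 3 lists within 5 kb, which is close to those shares. The strongest were at PBX4, with a GATA3 signal value of 63.8 and a BHLHE40 value of 35.8, and at PKNOX1, with a BHLHE40 value of 52.7 and an H3K27ac value of 8.50. That H3K27ac peak lay in the flank, just outside the PKNOX1 record. MEIS1, a partner of HOXA9 in leukaemia, had 1 GATA3 and 2 H3K27ac peaks and no BHLHE40 peak, and MEIS3 had no peak. MEIS1 and MEIS3 were named after their values were seen. All 14 genes for MLL and menin activators had BHLHE40 and H3K27ac, and 10 had GATA3 (48.0% of all records). The strongest factor peaks were at MLLT1 (GATA3 78.2, BHLHE40 57.9). The strongest H3K27ac peak (27.7, 134164463 to 134165414) was counted for WDR5 only through its flank, since the WDR5 record ends at 134159968. All 22 Polycomb genes had BHLHE40 and H3K27ac, and 12 had GATA3, the latter close to the share of all records, with the strongest GATA3 peak at EZH1 (103) and the strongest BHLHE40 peak at MTF2 (95.7).

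Of 11 homeobox genes outside the clusters, the ParaHox and CDX genes and homeobox genes rearranged in or linked to T-cell leukaemia, 2 had GATA3, 1 BHLHE40 and 2 H3K27ac, against 48.0%, 61.6% and 78.4% of all records. No peak was listed at 8 of them, against 19.1% of all records and 25.8% of those no longer than the longest HOX record. HHEX, which is active in early blood and lymphoid cells, had all 3, with signal values of 38.3 for GATA3 and 4.11 for H3K27ac and a BHLHE40 peak of rank 1841. TLX3, an oncogene of T-cell leukaemia, had a GATA3 peak of 24.9 and no other, and GSX1 an H3K27ac peak of 3.74. The peaks of TLX3 and GSX1, and the GATA3 peak of 38.3 at HHEX, lay in the flanks outside the records. CDX1, CDX2 and CDX4, the homeobox regulators upstream of HOX genes, had none and were also named after their values were seen.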

How the data were processed

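The lists were deposited in narrowPeak layout. Per the submitters' processing notes the build is hg38, and MACS2 and bcl2fastq 2.20 were among the tools. The aligner, filters and use of input are not given in the sources used here. The names of the deposited lists give an irreproducible discovery rate of 0.05 over 2 samples for the factors, and pooled samples for H3K27ac. The score, the signal value (an enrichment ratio), the −log10 p and the −log10 q of each peak are the authors' deposited values. In the deposited H3K27ac list the score is 10 times −log10 p.

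Coordinates are 1-based. Gene records, promoters and microRNAs are RefSeq (GRCh38.p14); a record does not tell exons from introns. Distances between summits and records, overlaps of at least 1 bp and letter searches were computed in Python 3.11.15 with numpy 2.4.6 and pandas 2.3.3, and plotted with matplotlib 3.10.9. The overlap count was tested on simulated data, where it recovered every planted peak. Samples were grouped by title, and 16 groups were not analysed here.

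The members, gene lists and comparisons were chosen with earlier results of these data known. By rule, up to 3 of the strongest peaks per cluster and list were described, with the members with peaks of all lists or none, and up to 3 genes per other list. Of the microRNAs, 3 mature forms are printed. Alternatives changed the flank, the overlap, the threshold (score 830, −log10 q 5) and the window. Values of some single genes are counted but not reported here.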

Additional observations from a re-analysis of the deposited data

How the results depend on the processing

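Across 16 results, 54 settings were computed, and 40 stayed within 1.5 times the count or within the 95% Wilson interval of the share. The number of HOX genes with GATA3 moved from 3 to 12 with a flank of 20 kb. For BHLHE40 it moved from 15 to 7 with no flank, 8 with 1 kb, 29 with 20 kb and 8 with the stricter score (830). For H3K27ac it moved from 25 to 13 with no flank and 16 with 1 kb. The stricter thresholds left 7 of 11 BHLHE40 peaks and 13 of 28 H3K27ac peaks in the clusters, and no peak of both GATA3 and BHLHE40, so that overlap was 0% from either list. In all protein-coding records the same stricter thresholds gave 40.3%, 56.1% and 61.9%, and no flank 40.8%, 56.0% and 70.9% (GATA3, BHLHE40, H3K27ac), settings added after seeing the data. The HOX shares stayed below these, at 7.69%, 20.5% and 43.6% with the stricter thresholds. Summits within 100 bp were found for 0% of BHLHE40 against H3K27ac peaks, in either direction. The share over the whole lists was not computed at this setting, so the 0% cannot be called particular to the clusters. In the 150 bases nearest the gene start 23.1% of HOX windows held GATA, against 46.2% in 300 bases. The fewer bases searched or peaks kept lower such counts by construction. Of 72 counts per cluster and list, 66 stayed within 1.5 times, and the 6 others were at the stricter thresholds. The flank and overlap settings change only the outer edges of a cluster window, so counts per cluster could hardly move with them. The 66 are therefore no measure of stability, and the same holds for the cluster totals among the 54 settings.

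No paired analysis was possible because the 2 samples of a group were merged into 1 list. Leaving out a replicate was not run, since neither sample has a list here. The unknown depth limits each count, since a deeper sample lists more weak peaks.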
